A study of Mus musculus with 4 samples.

Results

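Chemokine ligands are small secreted proteins that direct the movement of immune cells, and 10 of them that microglia can make (Ccl2, Ccl3, Ccl4, Ccl5, Ccl6, Ccl9, Ccl12, Cxcl16, Cxcl2 and Cx3cl1) are described here. They were taken by gene symbol from the count tables, and all 10 were found among the 49993 genes counted. RNA was measured by bulk RNA-seq of cells positive for CD11b, a surface protein of microglia (the brain's own macrophages) and other myeloid cells, sorted with antibody-coated magnetic beads from 10-month-old mouse brain. Every mouse carried APP/PS1, transgenes that cause amyloid to build up and serve as a model of Alzheimer's disease. The AD group (genotype APP/PS1+ asrij+/+) and the AD/KO group (APP/PS1+ asrij-/-, with asrij, the gene Ociad1, deleted constitutively and so not in microglia alone) had 2 libraries each. There was no group without APP/PS1, so the amyloid model and the deletion could not be compared with a normal brain.

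Chemokines are named for the spacing of the first cysteines of the protein: adjacent in the CC family, parted by a residue in the CXC family and by several in CX3C. They act through G protein-coupled receptors, and most ligands share receptors with others. Microglia are known to make Ccl3 and Ccl4 when activated, and clusters of microglia around amyloid plaques are known for them. Cx3cl1, in contrast, is made mainly by neurons and read by microglia through Cx3cr1.

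Of the 10 genes, 8 lie on chromosome 11. Ccl5, Ccl9, Ccl6, Ccl3 and Ccl4 sit together within 138.906 kb (RefSeq, GRCm38.p6, chr11:83525778-83664683), and Ccl2 and Ccl12 within 67.823 kb (chr11:82035577-82103399). Cxcl16 lies apart on the same chromosome (chr11:70454389-70459984), Cxcl2 on chromosome 5 (chr5:90903899-90905938) and Cx3cl1 on chromosome 8 (chr8:94772180-94782427). All are protein-coding. The RefSeq table held the promoters of 6 of the 10. The 250 bases before the annotated start are shown for 3 of them (RefSeq, GRCm38.p6). These are Ccl3, which had the largest difference between the groups, Ccl9, from the same cluster, with the smallest difference among the well-covered genes, and Cx3cl1, the gene with the opposite direction. Capitals mark matches, on either strand, to AP-1 (TGANTCA), the ISRE core (TTTC and TTTC with 2 bases between, the PU.1 core (GAGGAAG) or the NF-kB consensus.

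Ccl3: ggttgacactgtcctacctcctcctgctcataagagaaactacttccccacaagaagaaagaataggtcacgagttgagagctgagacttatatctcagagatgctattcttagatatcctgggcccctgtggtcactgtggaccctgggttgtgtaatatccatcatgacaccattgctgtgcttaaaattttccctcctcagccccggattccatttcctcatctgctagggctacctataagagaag
Ccl9: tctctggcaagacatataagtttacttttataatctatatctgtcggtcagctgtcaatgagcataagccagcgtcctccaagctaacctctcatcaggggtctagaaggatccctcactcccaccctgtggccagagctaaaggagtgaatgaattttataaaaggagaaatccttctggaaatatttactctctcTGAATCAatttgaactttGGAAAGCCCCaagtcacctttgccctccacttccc
Cx3cl1: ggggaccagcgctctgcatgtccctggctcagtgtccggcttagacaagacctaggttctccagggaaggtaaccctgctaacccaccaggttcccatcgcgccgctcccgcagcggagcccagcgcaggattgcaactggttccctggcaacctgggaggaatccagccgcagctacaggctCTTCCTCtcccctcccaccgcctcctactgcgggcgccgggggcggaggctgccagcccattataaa

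The windows are chr11:83649379-83649628 (minus strand) for Ccl3, chr11:83578637-83578886 (minus strand) for Ccl9 and chr8:94771930-94772179 (plus strand) for Cx3cl1. The Ccl3 window held none of the 4 motifs. The Ccl9 window held AP-1 at −53 and an NF-kB match at −35, which do not overlap. The Cx3cl1 window held the PU.1 core at −67. Positions are counted from the RefSeq start. In GENCODE M21, Cx3cl1 starts at chr8:94772009, inside its window and before that match. Of 32851 promoters of the same length, 6.75% held AP-1, 2.98% the ISRE core, 10.6% the PU.1 core and 7.25% the NF-kB consensus. Among the other 3 member promoters, those of Ccl6 and Ccl12 held none and that of Cxcl2 held an NF-kB match. These are matches of letters in a short window only.

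The libraries held from 13102622 to 19810076 counts, and 1 CPM (the usual unit of counts divided by library size, with sizes scaled by TMM) stood for 13.8 to 19.2 reads. The sorted cells carried all 12 homeostatic microglial markers of the list used (among them P2ry12, Tmem119 and Cx3cr1), whose summed level was 19368 and 13216 CPM in AD replicates 1 and 2 and 19758 and 5713 CPM in AD/KO replicates 1 and 2. All 10 neuron markers (339.7 to 1182 CPM summed in AD, 883.3 and 2791 in AD/KO) and all 10 astrocyte markers (2162 and 5139 in AD, 5537 and 14148 in AD/KO) were also read. The summed levels in AD and AD/KO ran from 1670 to 2704 and from 3968 to 8679 CPM for the 10 oligodendrocyte markers, from 64.1 to 92.4 and from 75.7 to 136.5 for the 10 endothelial and mural markers, from 103.1 to 135.0 and from 60.3 to 70.9 for the 8 border macrophage markers, and from 549.4 to 612.9 and from 388.6 to 575.4 for the 15 immediate early genes. The 10 neutrophil markers stood at 4497 CPM in AD replicate 2 and from 322.8 to 518.7 CPM in the other libraries. The 8 monocyte markers were at 244.7 and 648.5 CPM in AD and 99.5 and 153.5 CPM in AD/KO. T and NK cell markers summed to at most 5.4 CPM with Trac at 0 reads in every library, and B cell markers to at most 14.5 CPM with Ighm at 0. Ociad1 itself had 691 and 1032 reads in AD and 746 and 592 in AD/KO. The log2 fold change was −0.68 (SE 0.29). Reads of the targeted gene were thus present in both AD/KO libraries, and every direction below is a difference between libraries labelled AD/KO and libraries labelled AD. Xist, an RNA made in female cells, had 1391 reads in AD replicate 2 and at most 15 in each other library. Any contrast that uses or leaves out AD replicate 2 thus differs in Xist too, and the part of sex was not tested. Nothing in the labels says how many mice or cultures stand behind a library, so p-values measure only the spread between these samples.

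Across all genes, 0 of 21439 tested (0%) passed edgeR's quasi-likelihood test at an adjusted p of 0.05. Before adjustment 1072 genes (5%) had a p under 0.05, with 2.3% lower and 2.7% higher in AD/KO, and DESeq2 called 90 of the 19360 genes to which it gave an adjusted p (0.465%). None of the chemokine genes passed in the edgeR fit, and the differences below are given as measured sizes. Of the 10 members, 8 passed the filter on low counts. Ccl2 and Cxcl2 did not, and were tested only in the edgeR fit without a filter, with adjusted p of 0.843 and 0.966. Before adjustment 4 of the 8 had a p under 0.05 by edgeR, lower for Ccl3, Ccl4 and Ccl6 and higher for Cx3cl1. The log2 fold change was below 0 in 7 of the 8, as in 52.8% of all genes. In 6 of the 8 members tested the AD/KO libraries were both under the AD libraries, in 1 (Cx3cl1) both over them, and in 1 (Ccl5) the groups overlapped. Of the members not tested, Ccl2 was lower in CPM without overlap, but at 6 and 9 reads in AD against 6 and 7 in AD/KO. Cxcl2 overlapped. Over all genes tested the groups did not overlap with AD/KO lower in 21.7% and with AD/KO higher in 20.3%. The median log2 fold change was −1.24 over the 8 members tested and −0.05 over all genes.

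**Figure D1:**
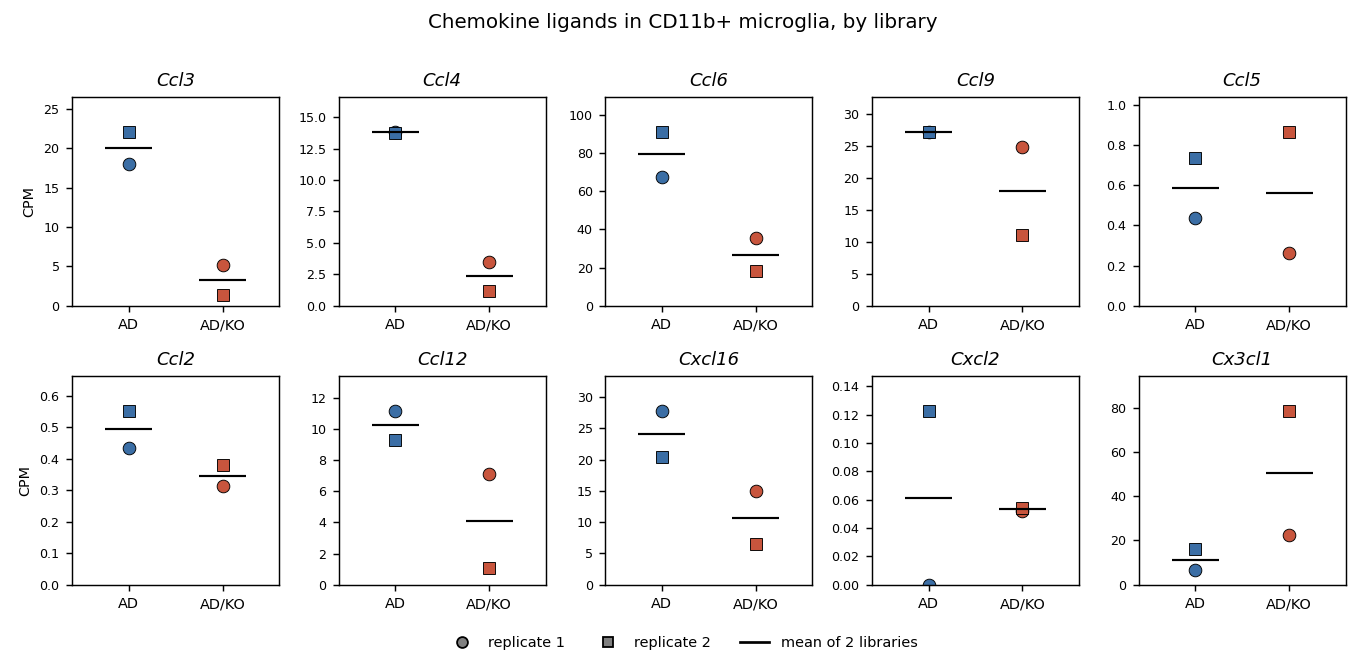
CPM (vertical axis, linear, from 0, its own scale in each panel) of the 10 chemokine ligands in the AD and AD/KO libraries. Circles are replicate 1, squares replicate 2 and lines the mean of 2 libraries; Ccl3 and Ccl4 lie lowest in AD/KO against AD, and Cx3cl1 lies highest in AD/KO replicate 2 at 78.5 CPM.

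The largest differences were in Ccl3 and Ccl4, the neighbouring CC ligands that draw in myeloid and lymphoid cells, Ccl3 in part through Ccr1. Ccl3 (gene ID 20302, chr11:83647843-83649378) had 249 and 360 reads in AD and 98 and 25 reads in AD/KO, or 18.0 and 22.1 CPM against 5.10 and 1.35 CPM. Both AD libraries were high, both AD/KO libraries were low, and AD/KO replicate 2 was the lowest. The means were 20.1 ± 2.86 CPM in AD and 3.23 ± 2.65 CPM in AD/KO (SD, n = 2 each), 6.20-fold lower in the fit. This is a log2 fold change of −2.63 (SE 0.71), with an unadjusted p of 0.0143 and an adjusted p of 0.680 by edgeR's quasi-likelihood test. DESeq2's Wald test, in contrast, gave an adjusted p of 0.0385. The size rested in part on the AD/KO library used, at −3.81 on the log2 scale when replicate 1 was left out and −1.97 when replicate 2 was.

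Ccl4 (gene ID 20303, chr11:83648624-83664683) followed the same course, with 191 and 224 reads in AD and 67 and 22 reads in AD/KO. Its levels were 13.8 and 13.7 CPM in AD and 3.49 and 1.19 CPM in AD/KO, so that the AD libraries were nearly equal and both AD/KO libraries lay well below them. Its log2 fold change was −2.55 (SE 0.63), 5.87-fold lower, with an unadjusted p of 0.0103 and an adjusted p of 0.680 by edgeR's quasi-likelihood test. DESeq2 gave an adjusted p of 0.0436. Leaving out AD/KO replicate 1 gave a log2 fold change of −3.45, and leaving out AD/KO replicate 2 gave −1.98. Of the 8 members tested, Ccl3 and Ccl4 were the only ones that DESeq2 called, where it called 0.465% of all genes. In RefSeq the Ccl4 locus reaches into that of Ccl3, and the genes lie on opposite strands. Whether the counting used strand is not given in the sources used here, so the split of reads between them is uncertain.

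Monocyte markers (6 of 8 lower in AD/KO without overlap) and border macrophage markers (6 of 8) stood lower in AD/KO as well, against 21.7% of all genes tested. F13a1 is in both marker lists. The part of these cells in Ccl3 and Ccl4 was not tested.

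In these bulk samples, fewer microglia in a library and less RNA per microglia cannot be told apart. The members were also set against the summed reads of the 12 homeostatic markers of the same library. The log2 fold changes of these markers ran from −1.34 (Fcrls) to 0.08 (Tmem119). They did not move together, so their sum is not a count of microglia, and the cause of the differences was not tested. Ccl3 then stood at 0.931 and 1.67 reads per 1000 marker reads in AD and at 0.258 and 0.237 in AD/KO. Ccl4 stood at 0.714 and 1.04 in AD and at 0.176 and 0.209 in AD/KO. On this scale the AD/KO libraries were nearly alike for both genes, at 0.190 times the AD mean for Ccl3 and 0.219 times for Ccl4. The AD libraries, in contrast, lay further apart than in CPM, where Ccl4 had been at 13.8 and 13.7. With the libraries scaled to these markers in the edgeR fit, the log2 fold change was −2.39 for Ccl3 and −2.19 for Ccl4, while the median of all genes moved by 0.78 to 0.73. AD replicate 1 and AD/KO replicate 1 had nearly the same summed marker level (19368 and 19758 CPM), and between them Ccl3 was 3.54-fold and Ccl4 3.97-fold lower in AD/KO. AD replicate 2 and AD/KO replicate 1 had nearly the same mean level of the neuron and astrocyte markers (6.68 and 6.64 on the log2 CPM scale), and between them the genes were 4.33-fold and 3.94-fold lower. Neither pair was matched in other cells (AD library given first). The first pair differed in summed neuron markers (339.7 and 883.3 CPM) and monocyte markers (244.7 and 99.5 CPM). The second differed in neutrophil markers (4497 and 461.7 CPM), monocyte markers (648.5 and 99.5 CPM) and Xist (1391 and 15 reads). Each of these contrasts is of 1 library with 1 library and has no test.

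**Figure D2:**
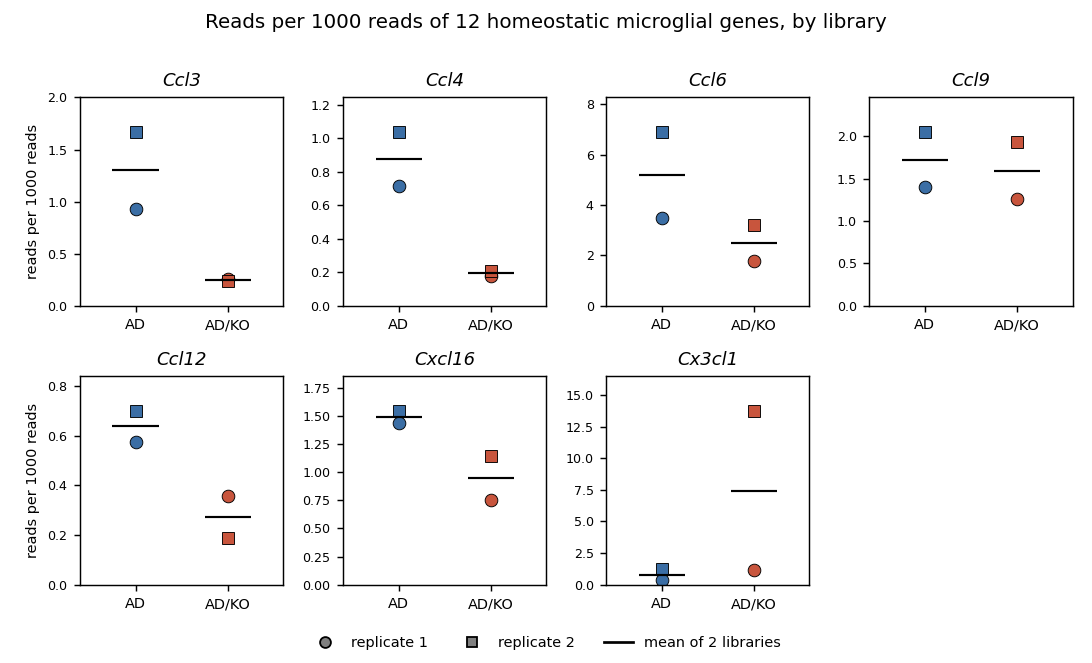
Reads of 7 chemokine ligands per 1000 reads of 12 homeostatic microglial genes in the same library (vertical axis, linear, from 0). Circles are replicate 1, squares replicate 2 and lines the mean of 2 libraries. The AD/KO libraries lie together for Ccl3 (0.258 and 0.237) and Ccl4 (0.176 and 0.209). The AD libraries lie apart for Ccl3 (0.931 and 1.67) and Ccl4 (0.714 and 1.04). The groups overlap for Ccl9 and Cx3cl1.

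The genes whose course over the 4 libraries was most like that of Ccl3, by Euclidean distance between centred log2 CPM among 11303 genes with a mean of at least 10 CPM, were Itgax (distance 0.44), Hcar2 (0.49), Olfr111 (0.50), Gm26740 (0.65) and Gm16118 (0.82). Itgax, an integrin chain, stood at 68.2 and 69.9 CPM in AD and 12.6 and 4.55 CPM in AD/KO. Ccl4 lay at 0.38 from Ccl3 but was below the level searched.

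Ccl6 and Ccl9, a pair of CC ligands of myeloid cells that act through Ccr1, lie side by side between Ccl5 and Ccl3 but differed in size of effect. Ccl6 (gene ID 20305, chr11:83587886-83593087) was the most abundant member per length in both AD libraries, with a mean of 44.2 ± 9.42 CPM per kb in AD and 14.96 ± 6.73 CPM per kb in AD/KO (SD, n = 2 each). In AD/KO replicate 2 it lay below Cx3cl1, at 10.2 against 19.99 CPM per kb. Its reads were 930 and 1488 in AD and 680 and 338 in AD/KO, or 67.4 and 91.3 CPM against 35.4 and 18.3 CPM, and the groups did not overlap. Ccl6 had a log2 fold change of −1.56 (SE 0.43), 2.95-fold lower, with an unadjusted p of 0.0153 and an adjusted p of 0.680 by edgeR's quasi-likelihood test. Per 1000 homeostatic marker reads it was at 3.48 and 6.91 in AD and 1.79 and 3.21 in AD/KO. Neutrophil markers were highest in AD replicate 2, the library with the most Ccl6, and monocyte markers were higher in both AD libraries; their part in the level of Ccl6 was not tested. Between the replicate 1 libraries, where neutrophil markers stood at 322.8 CPM in AD and 461.7 CPM in AD/KO, Ccl6 was 1.90-fold lower in AD/KO. In the same pair monocyte markers stood at 244.7 and 99.5 CPM and border macrophage markers at 135.0 and 70.9 CPM. This contrast is of 1 library with 1 library and has no test.

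Ccl9 (gene ID 20308, chr11:83572917-83578636) had 374 and 443 reads in AD and 477 and 204 reads in AD/KO, or 27.1 and 27.2 CPM against 24.8 and 11.1 CPM. Only AD/KO replicate 2 stood clearly apart, and replicate 1 was 1.09-fold below AD replicate 1. Its log2 fold change was −0.60 (SE 0.46), with an adjusted p of 0.688 by edgeR's quasi-likelihood test. Leaving out AD/KO replicate 2 gave −0.13, leaving out AD/KO replicate 1 gave −1.23, and −0.12 came with scaling to the homeostatic markers. Per 1000 of those marker reads Ccl9 was at 1.40 and 2.06 in AD and 1.26 and 1.93 in AD/KO, and the groups overlapped. A stretch of 142 to 154 bases of a Ccl9 transcript matched 7 other genes at 95% identity or more, so that reads from it may have been lost or shared.

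Ccl12, Ccl2 and Ccl5 recruit monocytes and lymphocytes, Ccl12 and Ccl2 through Ccr2 and Ccl5 in part through Ccr1 and Ccr3. Ccl12 (gene ID 20293, chr11:82101845-82103399) had 154 and 151 reads in AD and 136 and 20 reads in AD/KO, or 11.2 and 9.26 CPM against 7.08 and 1.08 CPM. AD/KO replicate 2 was far below the 3 other libraries, and replicate 1 was 1.58-fold below AD replicate 1. The log2 fold change of −1.32 (SE 0.90) had an adjusted p of 0.680 by edgeR's quasi-likelihood test, and became −0.53 when AD/KO replicate 2 was left out and −3.16 when replicate 1 was. With the neuron and astrocyte level as a covariate it was −0.44.

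Ccl2 (gene ID 20296, chr11:82035577-82037452), the main ligand of Ccr2, was nearly absent, with 6 and 9 reads in AD and 6 and 7 reads in AD/KO, or from 0.312 to 0.552 CPM. It was above the floor of 3 reads (0.156 to 0.217 CPM in these libraries) but under the filter for testing, and a difference was not detectable at this depth. Ccl5 (gene ID 20304, chr11:83525778-83530518), a ligand also made by T and NK cells, had 6 and 12 reads in AD and 5 and 16 reads in AD/KO, or 0.435 and 0.736 CPM against 0.260 and 0.867 CPM. The groups overlapped, and the log2 fold change of −0.07 (SE 0.87) changed sign with the scaling. Thus in these cells the Ccr2 ligand with a measurable level was Ccl12, at 19.0 ± 2.49 CPM per kb in AD against 0.434 ± 0.0730 CPM per kb for Ccl2 (SD, n = 2 each).

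Of the CXC ligands, Cxcl16, which is made as a membrane protein that can be shed and which binds Cxcr6, was measured well. Cxcl16 (gene ID 66102) had 384 and 333 reads in AD and 287 and 121 reads in AD/KO, or 27.8 and 20.4 CPM against 14.9 and 6.55 CPM, with no overlap between the groups. The log2 fold change was −1.17 (SE 0.50), 2.24-fold lower, with an unadjusted p of 0.0699 and an adjusted p of 0.680 by edgeR's quasi-likelihood test. It became −0.69 when AD/KO replicate 2 was left out, −1.81 when replicate 1 was, −0.65 with scaling to the homeostatic markers and −0.48 with the neuron and astrocyte level as a covariate. Per 1000 homeostatic marker reads it was at 1.44 and 1.55 in AD and 0.756 and 1.15 in AD/KO. In GENCODE M21 (GRCm38), 552 bases (18.3%) of its exons lie over Zmynd15 on the other strand, which had 237, 133, 146 and 64 reads in AD replicates 1 and 2 and AD/KO replicates 1 and 2.

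Cxcl2 (gene ID 20310), a ligand of Cxcr2 that draws neutrophils, was the 1 member at the floor in both groups. It had 0 and 2 reads in AD and 1 and 1 reads in AD/KO, and no fold change is given. AD replicate 2, the library with the most neutrophil marker RNA, had 2 reads of it.

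Cx3cl1 (gene ID 20312), the membrane-bound ligand of Cx3cr1, ran in the opposite direction. It had 92 and 260 reads in AD and 431 and 1450 reads in AD/KO, or 6.67 and 16.0 CPM against 22.4 and 78.5 CPM. AD/KO replicate 2 stood far above the rest, and AD replicate 2 and AD/KO replicate 1 lay close together. The log2 fold change was 2.16 (SE 0.77), 4.46-fold higher, with an unadjusted p of 0.0383 and an adjusted p of 0.680 by edgeR's quasi-likelihood test. Leaving out AD replicate 2 raised this to 2.99, and leaving out AD/KO replicate 2 lowered it to 0.99. The order of the libraries in Cx3cl1 was nearly that of the mean log2 CPM of the neuron markers, which was 4.20 and 5.89 in AD and 5.70 and 7.30 in AD/KO. With the neuron and astrocyte level as a covariate the log2 fold change was 0.53, with an adjusted p of 0.781 by edgeR's quasi-likelihood test. With scaling to the homeostatic markers it was 3.26, with an adjusted p of 0.797 by the same test. The part of neuron RNA in the level of Cx3cl1 was not tested. AD replicate 2 and AD/KO replicate 1 were near in neuron and astrocyte level but not matched in other cells. They differed 1.41-fold in Cx3cl1, without a test. The 5 genes most like it over the 4 libraries, by the distance used above, were Lingo1 (0.090), Alk (0.14), Igsf3 (0.15), Col18a1 (0.18) and Chga (0.18). Lingo1, a neuronal membrane protein, stood at 12.5 and 30.7 CPM in AD and 44.3 and 159.4 CPM in AD/KO.

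**Figure D3:**
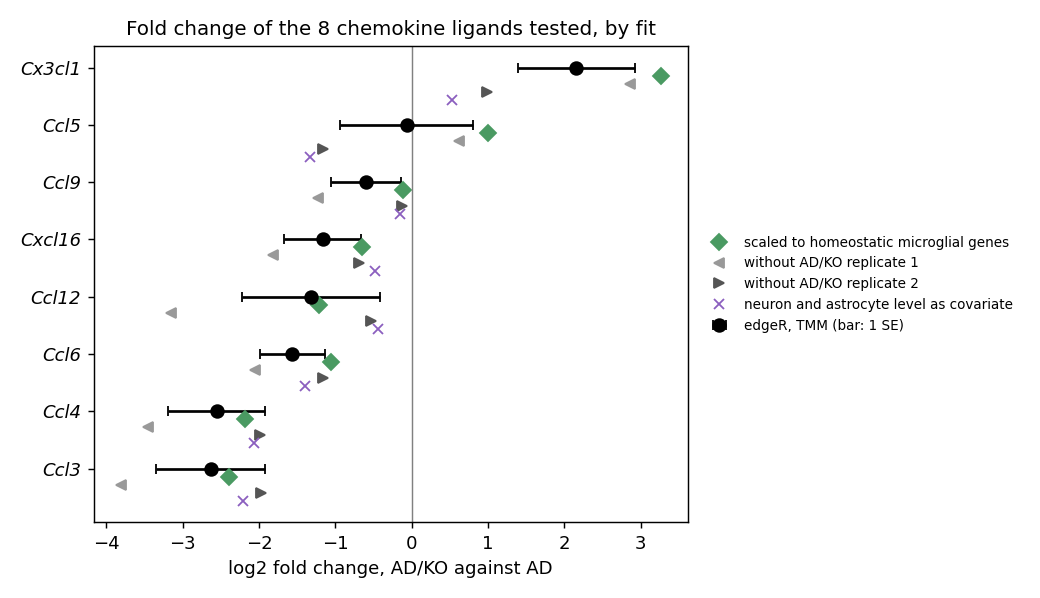
Log2 fold change (horizontal axis, AD/KO against AD) of the 8 members tested. Black points are the edgeR fit with TMM scaling and bars its SE, and other marks are alternative fits. Ccl3 and Ccl4 stay between −3.81 and −1.97 in the fits shown. Cx3cl1 moves from 2.16 to 0.53 with the neuron and astrocyte covariate and to 3.26 with scaling to the homeostatic markers.

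Per length of exon (GENCODE M21), the order in AD was Ccl6, Ccl3 (26.2 ± 3.74 CPM per kb), Ccl4 (20.9 ± 0.102), Ccl12, Ccl9 (8.91 ± 0.0193), Cxcl16 (7.99 ± 1.73), Cx3cl1 (2.88 ± 1.67), Ccl5, Ccl2 and Cxcl2 (SD, n = 2 each). Neighbours in that order whose libraries overlapped were Ccl9 with Cxcl16 and Ccl5 with Ccl2. In AD/KO, Cx3cl1 (12.8 ± 10.1 CPM per kb) came next after Ccl6 by the mean, and Ccl3 (4.21 ± 3.46) and Ccl4 (3.54 ± 2.46) came lower in the order than Ccl12 and Ccl9. There, however, each neighbouring pair from Ccl6 down to Ccl4 overlapped, so that their order is not resolved.

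Of the other 28 ligands of the superfamily, 11 were tested. None passed in either direction by edgeR's quasi-likelihood test. Before adjustment 3 had a p under 0.05 by that test, all lower in AD/KO, against 2.3% of all genes tested. At the floor in both groups were 9 of the 28. The other ligands with a mean of at least 5 CPM were Cxcl14, Ccl27a and Cxcl12. Cxcl14 stood at 16.7 and 37.6 CPM in AD and 41.8 and 110.5 CPM in AD/KO (log2 fold change 1.49, SE 0.64). For Cxcl14 the log2 fold change was 0.62 with AD/KO replicate 2 left out, 2.25 with AD replicate 2 left out and 2.09 with AD/KO replicate 1 left out. Ccl27a stood at 8.48 and 11.4 CPM in AD and 14.3 and 25.1 CPM in AD/KO (0.99, SE 0.43). Cxcl12, the ligand of Cxcr4, overlapped between the groups (3.26 and 7.79 against 2.19 and 16.8 CPM). In each of the 3, AD/KO replicate 2, the library with the most neuron and astrocyte RNA, was the highest. With the neuron and astrocyte level as a covariate the log2 fold change was 0.19 for Cxcl14, 0.35 for Ccl27a and −1.67 for Cxcl12, with adjusted p of 0.934, 0.899 and 0.597 by edgeR's quasi-likelihood test. Cxcl12 also changed sign, from 0.78 to −1.34, when AD/KO replicate 2 was left out.

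Of the 19 receptors, 14 were tested, 0 passed by edgeR's quasi-likelihood test and 4 had an unadjusted p under 0.05, all lower in AD/KO. The groups did not overlap in 8 of the 14, each with AD/KO lower, against 21.7% of all genes tested. Before adjustment 2.3% of all genes tested had a p under 0.05 by that edgeR test and were lower in AD/KO. Ccr2, the receptor of Ccl2 and Ccl12 and a marker of monocytes, stood at 39.7 and 39.9 CPM in AD and 10.3 and 6.12 CPM in AD/KO. Its log2 fold change of −2.28 (SE 0.38) had an adjusted p of 0.680 by edgeR's quasi-likelihood test and of 0.0219 by DESeq2. The monocyte markers, Ccr2 among them, stood lower in AD/KO too, and their part was not tested. Ccr1, the receptor of Ccl3, Ccl6 and Ccl9, stood at 36.7 and 31.3 CPM in AD and 18.3 and 7.10 CPM in AD/KO (log2 fold change −1.42, SE 0.52). For Ccr1 this became −2.19 with AD/KO replicate 1 left out, −0.89 with replicate 2 left out and −0.81 with the neuron and astrocyte covariate. Cx3cr1, the receptor of Cx3cl1, overlapped between the groups, at 3102 and 2255 CPM in AD against 3019 and 960.5 CPM in AD/KO.

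Cxcr6, the receptor of Cxcl16, stood at 13.98 and 6.57 CPM in AD and 5.78 and 2.11 CPM in AD/KO, without overlap. Its log2 fold change was −1.38 (SE 0.70), but −0.22 with the neuron and astrocyte covariate, −0.73 with AD replicate 1 left out and −2.21 with AD/KO replicate 1 left out. Cxcr2, a neutrophil receptor, was highest in AD replicate 2 at 46.7 CPM, against 12.9, 5.62 and 9.37 CPM in AD replicate 1 and AD/KO replicates 1 and 2. Leaving out AD replicate 2 moved its log2 fold change from −1.99 to −0.72. Cxcr4 was likewise highest in AD replicate 2, at 23.4 CPM against 5.72, 4.22 and 7.42 CPM. Ccr6 stood at 146.5 and 86.1 CPM in AD and 136.2 CPM in AD/KO replicate 1, but at 1.35 CPM (25 reads) in AD/KO replicate 2, so that 1 library set its log2 fold change of −0.76 (SE 1.68), which was 0.23 with that library left out, −6.35 with AD/KO replicate 1 left out and 0.57 with the neuron and astrocyte covariate.

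**Figure D4:**
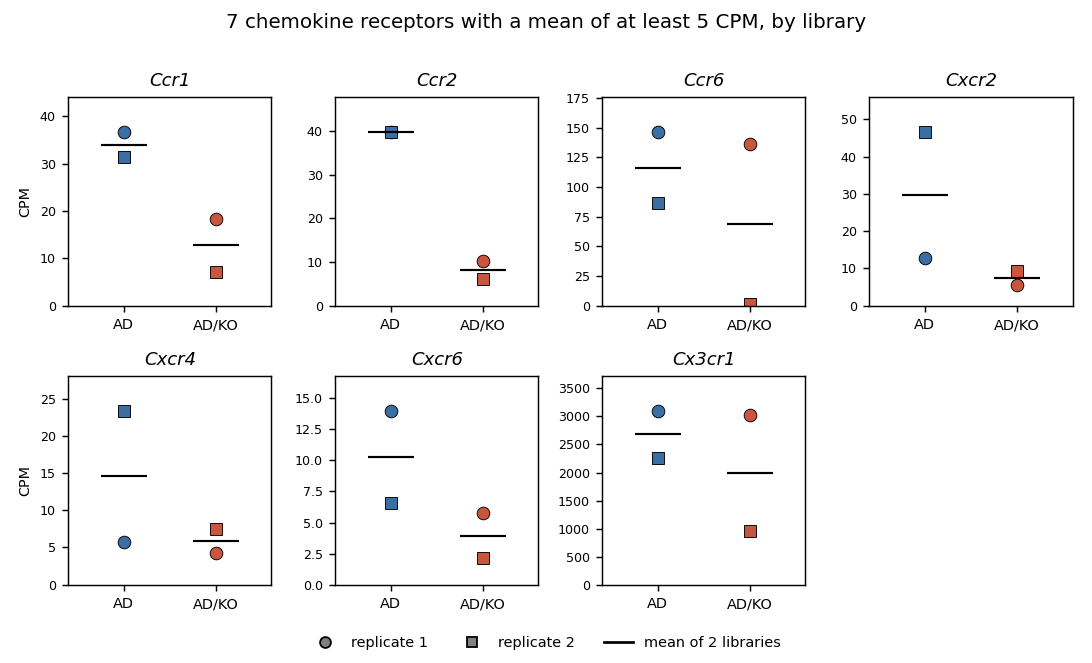
CPM (vertical axis, linear, from 0, its own scale in each panel) of 7 chemokine receptors with a mean of at least 5 CPM. Circles are replicate 1, squares replicate 2 and lines the mean of 2 libraries; the groups are apart for Ccr1, Ccr2, Cxcr2 and Cxcr6, and Ccr6 is near 0 in AD/KO replicate 2 alone.

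Of the 5 decoy receptors, 3 were tested and 0 passed, and of the 4 proteases that act on chemokines or other secreted proteins all were tested and 0 passed, by the same edgeR test. Adam10 and Adam17, the sheddases that release Cx3cl1 and Cxcl16 from the membrane, overlapped between the groups. Adam10 was at 292.9 and 208.0 CPM in AD and 233.0 and 110.9 CPM in AD/KO, and Adam17 at 209.2 and 140.7 against 168.5 and 70.6 CPM. Ctsc, a lysosomal dipeptidase, was at 367.8 and 244.9 against 244.7 and 80.7 CPM.

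All 20 genes of signalling below the receptors were tested, and 0 passed by edgeR's quasi-likelihood test. Before adjustment 1 of the 20 had a p under 0.05 by that test, against 5% of all genes. The 3 with the most negative log2 fold change were Fgr (−2.05, SE 0.43), a Src-family kinase of myeloid cells, Rgs1 (−1.73, SE 0.82), which shortens G protein signals, and Plcb2 (−1.03, SE 0.61), a phospholipase. With the neuron and astrocyte covariate Rgs1 was at −1.11 and Plcb2 at −0.14, and with AD/KO replicate 2 left out they were at −1.01 and −0.47. With AD/KO replicate 1 left out they were at −3.17 and −1.91. Fgr stood at 34.1 and 60.6 CPM in AD and 13.5 and 9.32 CPM in AD/KO. The 3 with the most positive were Gnb1 (0.58, SE 0.40), Grk3 (0.53, SE 0.41) and Grk2 (0.11, SE 0.34), a G protein subunit and a pair of receptor kinases. That covariate gave 0.06 for Gnb1 and −0.11 for Grk3.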

How the data were processed

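Bulk RNA-seq counts of CD11b+ microglia were analysed for 2 AD and 2 AD/KO libraries. Per the labels' protocols, RNA was extracted with TRIzol, depleted of ribosomal RNA and made into stranded libraries. The authors deposited raw counts of reads for each gene symbol in 1 table per library. Per the submitters' processing notes, HISAT2, SAMtools, featureCounts (Subread) and DESeq2 1.30.0 were used with build mm10; the annotation and the counting settings are not given in the sources used here. Each deposited file had 11 broken lines that held no count and were left out. There were 0 columns without a sample.

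Genes were kept by filterByExpr (minimum count 10, minimum total 15), scaled by TMM and tested with the quasi-likelihood F-test of edgeR 4.0.16 (R 4.3.3) on all 4 libraries without covariates, with Benjamini-Hochberg adjustment over all genes at 0.05. SE is the size of the log2 fold change divided by the square root of F. DESeq2 1.42.0 was an alternative. A group with at most 3 reads in each library is at the floor. Totals of 13102622 to 19810076 counts set the precision, and reads carry no molecular identifiers. Transcripts were compared with BLAST 2.17.0 (stretches of 100 bases or more at 95% identity or more). All 49993 symbols matched RefSeq for GRCm38.p6.

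All 10 members are named, as are other ligands, receptors, decoy receptors and proteases with a mean of at least 5 CPM (apart from 1 gene that is not reported here), 3 signalling genes in each direction, Ociad1, and 5 genes most like the member with the largest difference and 5 most like Cx3cl1. Members, lists, rules and alternatives were chosen with earlier results of these data known. On simulated counts at the real dispersion, 75.5% of 200 genes changed by 3 on the log2 scale were called among 21439 genes tested, and 11 of 162 calls were false. That change is larger than the log2 fold change of any member in the edgeR fit (largest −2.63, Ccl3). The share called therefore does not give the power for differences of the members' size. Alternatives were DESeq2's test and size factors, no filter, a filter at a mean of 1 CPM, the replicate number as a block, scaling to 12 homeostatic genes, a neuron and astrocyte covariate, and leaving out each library.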

Additional observations from a re-analysis of the deposited data

How the results depend on the processing

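The number of genes called was 0 by edgeR (1072 with p under 0.05 before adjustment), 90 with DESeq2 and 4333 with the replicate block. It ran from 0 to 721 with a library left out (49 without AD replicate 1, 721 without AD replicate 2). Of the members, 0 were called by edgeR (4 before adjustment), 2 with DESeq2 (Ccl3 and Ccl4), 5 with the replicate block and from 0 to 1 with a library left out (Cx3cl1, without AD replicate 2). Of the 52 other chemokine pathway genes tested, 0 were called by edgeR, 1 with DESeq2 (Ccr2), 14 with the replicate block and 0 with any library left out. The causes were not tested. Where a library was left out, the lone one of its group was assumed to vary like the other group. The median log2 fold change of the members, −1.24, ran from −1.93 (without AD/KO replicate 1) to −0.92 with a library left out, and was −0.89 with no filter, over all 10, −0.85 with scaling to the homeostatic genes and −0.91 with the neuron and astrocyte covariate. Ccl5 (−0.07) changed direction to 0.0079 with DESeq2, 0.996 with scaling to the homeostatic genes, 0.43 without AD replicate 2 and 0.62 without AD/KO replicate 1, where leaving out a library gave −1.15 to 0.62. The other 7 members tested kept their direction in all 11 alternatives.

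Replicates are numbered 1 and 2 in both groups, with no statement that equal numbers share a litter or day. How far libraries of equal number lay from their group means correlated at 0.64 over 21439 genes. The members called with the replicate block, where 20.2% of all genes were called, were Ccl3, Ccl4, Ccl6, Cxcl16 and Cx3cl1. Depth limits Ccl2, Ccl5 and Cxcl2, which had at most 16 reads in a library.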

Other observations

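Ratios of reads within a library need no scaling between libraries, and these were computed after the values had been seen. Ccl3 per Ccl9 read was 0.666 and 0.813 in AD and 0.205 and 0.123 in AD/KO. Ccl4 per Ccl9 read was 0.511 and 0.506 in AD and 0.140 and 0.108 in AD/KO. Ccl6 per Ccl9 read was 2.49 and 3.36 in AD and 1.43 and 1.66 in AD/KO. Of 8 ratios computed, the groups did not overlap in 7: these 3, Ccl12, Cxcl16 and Cx3cl1 per Ccl9 read, and Ccl6 per Ccl3 read. Ccl9 had the smallest difference of the well-covered members, so the separation of ratios to it follows in part from that choice. Among all genes tested, taken singly, 21.7% did not overlap with AD/KO lower and 20.3% with AD/KO higher. The exact permutation test of each of the 7 gave a two-sided p of 0.333, the smallest that 2 libraries against 2 can give. Ccl3 per Ccl4 read, the other ratio, was 1.30 and 1.61 in AD and 1.46 and 1.14 in AD/KO, and the groups overlapped (exact permutation p 0.667).

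The next 3 ligands, of low level, were picked by their values and not by the rule for named genes. Cxcl10, an interferon-induced ligand of Cxcr3, had 21 and 37 reads in AD and 5 and 7 in AD/KO. Its log2 fold change was −2.54 (SE 0.69), with an adjusted p of 0.680 by edgeR's quasi-likelihood test. Ccl8, a neighbour of Ccl12, had 11 and 10 reads in AD and 2 and 0 in AD/KO. Cxcl13, which draws B cells, had 8 and 7 reads in AD and 0 in both AD/KO libraries, and was below the filter for testing. These counts are small, and each was a single gene among the 28 other ligands looked at. All 3 were lower in AD/KO, but Ccl28, also of low level, had 4 and 9 reads in AD and 11 and 18 in AD/KO. Of the 11 other ligands tested, 6 had a log2 fold change below 0 and 5 above.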
